A study of Rattus norvegicus with 9 samples.

Results

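Microglia, the resident macrophages of the brain, were followed through 10 genes in the whole-brain RNA of male rats that lacked part of the long non-coding RNA Lrap. The genes were the complement chains C1qa, C1qb and C1qc, the homeostatic genes Tmem119, P2ry12 and Cx3cr1, and the receptor and signalling genes Csf1r, Trem2, Tyrobp and Aif1. For each gene the locus with that name on the same strand and the highest mean count was taken. All 10 were found among 114601 loci of the count matrix, and all 10 were among the 39057 loci that passed the filter on low counts. The 9 rats fell into 3 homozygotes and 3 heterozygotes for a CRISPR/Cas9 deletion within Lrap (618 bp; allele Crl:WI-Lrapem1Geh), and 3 wild-type Wistar rats from Charles River. None had received alcohol or another treatment, and 1 brain gave 1 library. The age of the rats, the number of founders of the line and whether the wild types were littermates are not stated in these sources, so the deletion and a difference in line cannot be told apart.

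Microglia sense and clear debris and synapses, and they depend for survival on signalling through the receptor encoded by Csf1r. C1q, the first component of the classical complement cascade, is built from the A, B and C chains, and in the brain microglia are its main source. Tmem119, P2ry12 and Cx3cr1 mark microglia in the undisturbed state, and their RNA commonly falls when microglia become activated, while Trem2 with its adaptor Tyrobp is needed for part of that activated state. Because whole brain was measured, fewer microglia and less RNA per microglial cell cannot be told apart in any value given here.

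The 3 C1q genes lie side by side on the minus strand of chromosome 5 (rn6), in a cluster of 17697 bp at chr5:155246447-155264143. C1qb came first by coordinate, at chr5:155246447-155252003, followed after 3001 bp by C1qc at chr5:155255005-155258392 and after a further 2857 bp by C1qa at chr5:155261250-155264143. Each was assembled as 1 isoform of 3 exons. The promoters of C1qa and C1qb are shown because these genes of the cluster share an orientation and were measured as separate loci. For C1qc, which lies between them, no promoter was at hand. That of Csf1r is shown because it is a well-studied target of PU.1, the myeloid transcription factor encoded by Spi1. The sequences are RefSeq's for GRCr8, 250 bases before to 50 bases after the annotated start and read along the gene's strand. Capitals mark GAGGAA or its reverse complement TTCCTC, a form of the PU.1 site, and other forms were neither searched nor marked.
C1qa (chr5:154419884-154420183, minus strand): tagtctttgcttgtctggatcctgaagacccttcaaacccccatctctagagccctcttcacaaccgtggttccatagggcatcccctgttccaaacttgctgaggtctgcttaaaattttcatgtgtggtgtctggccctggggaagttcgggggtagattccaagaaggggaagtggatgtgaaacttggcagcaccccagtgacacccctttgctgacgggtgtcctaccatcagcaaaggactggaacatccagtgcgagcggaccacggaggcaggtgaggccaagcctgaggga
C1qb (chr5:154407778-154408077, minus strand): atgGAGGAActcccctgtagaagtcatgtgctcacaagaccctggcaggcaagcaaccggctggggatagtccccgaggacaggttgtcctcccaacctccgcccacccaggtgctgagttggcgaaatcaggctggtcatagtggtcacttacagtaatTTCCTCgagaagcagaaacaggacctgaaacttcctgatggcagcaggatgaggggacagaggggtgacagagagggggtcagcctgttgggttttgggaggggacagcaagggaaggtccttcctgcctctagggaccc
Csf1r (chr18:56834129-56834428, plus strand): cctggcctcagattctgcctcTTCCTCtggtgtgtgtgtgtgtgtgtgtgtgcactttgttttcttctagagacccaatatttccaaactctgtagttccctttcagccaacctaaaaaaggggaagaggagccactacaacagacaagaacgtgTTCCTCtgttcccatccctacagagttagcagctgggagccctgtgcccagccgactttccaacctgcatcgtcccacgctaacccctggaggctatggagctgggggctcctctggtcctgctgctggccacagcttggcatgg

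Promoters were at hand for 5 of the 10 genes, these 3 with Cx3cr1 and Trem2. GAGGAA on either strand was found in 3 of the 5, with 2 matches in C1qb, 2 in Csf1r and 1 in Trem2. The same letters were found in 27.6% of 33469 rat promoters of the same length, so a match in one of these genes is a description of its letters and not a site. These letters were not in the windows of C1qa and Cx3cr1, where other forms of the PU.1 site were not searched.

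The other members are spread over the genome (rn6). Tmem119 lies at chr12:48598647-48605704 on the plus strand, P2ry12 at chr2:149439619-149482464 on the minus strand and Cx3cr1 at chr8:128740756-128754514 on the minus strand. Csf1r lies at chr18:56431820-56457869 on the plus strand, in 21 exons, and Trem2 at chr9:14611535-14621759 on the minus strand. Tyrobp lies at chr1:88875375-88879303 on the plus strand and Aif1 at chr20:5161350-5163660 on the minus strand. P2ry12 sits inside Med12l of the opposite strand, with 0 exonic bases in common. Over the 9 libraries Med12l held 10422.7 counts beside 2342 for P2ry12. Its mean was 27.5 CPM in homozygous, 29.2 in heterozygous and 30.9 in wild-type rats. For Csf1r 31.5% of exonic bases were shared with opposite-strand loci, and for Aif1 22.7%. Those opposite loci held 146 counts over the 9 libraries beside 19313 for Csf1r, and 29 beside 2213 for Aif1. Whether strand entered the authors' counting is not stated in these sources, so these opposite loci remain uncertain. How far their reads entered the counts of P2ry12, Csf1r and Aif1 was not tested.

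Library totals ran from 27489383 to 46975919 expected counts, and 1 of the 2 assembled Lrap isoforms followed the labels. That isoform, MSTRG.24458.2, had 0.345 ± 0.0867 CPM in homozygous, 1.04 ± 0.0612 CPM in heterozygous and 2.28 ± 0.353 CPM in wild-type rats (SD, n = 3 each). The longer isoform, MSTRG.24458.1, had 3.71 ± 0.861 CPM in homozygous, 3.16 ± 0.370 CPM in heterozygous and 3.08 ± 0.600 CPM in wild-type rats, which overlapped. CPM here are counts divided by the TMM-adjusted library size, a scale on which levels of 1 gene can be compared between libraries but not between genes. Mitochondrially encoded loci took 14.8% to 16.9% of counts in homozygous, 15.1% to 28.1% in heterozygous and 19.6% to 40.4% in wild-type rats. With these loci left out, the median log2 fold change of the 10 genes in homozygotes against wild types was 0.45, as with them. TMM trims loci of extreme level or ratio, so leaving them out could change little, and the part of the mitochondrial share was not tested.

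By TPM, which divides by transcript length and so allows genes to be compared, Csf1r was the most abundant of the 10 genes and Tmem119 the least. Over the 9 libraries Csf1r averaged 9.03 TPM, C1qa 7.57, C1qb 6.03 and Cx3cr1 5.01. Tyrobp averaged 4.02 TPM, Aif1 3.48, C1qc 2.52, P2ry12 2.23, Trem2 1.25 and Tmem119 0.828. C1qb was above Cx3cr1, P2ry12 above Trem2 and Trem2 above Tmem119 in 9 of 9 libraries, and all other neighbours in this order swapped places in at least 1 library. Tyrobp exceeded Aif1 in 6 of 9, the least stable step. The C1q chains were unequal in RNA, although the protein holds them in equal amounts. C1qc stood at 0.337 ± 0.0521 of C1qa by TPM (SD over 9 libraries), with 0.338 ± 0.0483 in homozygous, 0.348 ± 0.0160 in heterozygous and 0.326 ± 0.0889 in wild-type rats (SD, n = 3 each).

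The next comparison asked how the genes differed between homozygous and wild-type brain. On the CPM scale all 10 genes had a higher fitted level in homozygotes, by 1.06-fold for P2ry12 to 1.63-fold for C1qc, but by the authors' deposited TPM all 10 had a lower mean in homozygotes. A higher fitted level was also found for 44.3% of all tested loci and 73.2% of the 15204 that carry a gene name. By TPM 3.53% of 15086 named loci had a higher mean. No gene passed the test on the CPM scale: the adjusted p was 0.544 to 0.919 in edgeR's quasi-likelihood test with Benjamini-Hochberg adjustment over all tested loci. At an unadjusted p under 0.05, 5 of the 10 were higher (C1qa, C1qb, C1qc, Tmem119 and Cx3cr1), against 4.88% of all tested loci and 10.5% of named loci. In the same test 0 loci (0.0%) of the whole table passed the adjusted threshold of 0.05, while 1907 were higher and 1659 lower at an unadjusted p under 0.05. DESeq2 called 26 loci and limma-voom 0, with 0 of the 10 genes called by either.

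C1qa, the A chain of C1q, had 16.0, 15.1 and 17.8 CPM in homozygous rats 1 to 3, 11.7, 13.6 and 15.8 CPM in heterozygous rats, and 10.1, 8.77 and 12.98 CPM in wild-type rats. Every homozygote lay above every wild type, and the heterozygotes overlapped both. The log2 fold change of homozygotes over wild types was 0.62 ± 0.19 (SE; unadjusted p = 0.00688, edgeR adjusted p = 0.544).

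C1qb, the B chain, had 11.6, 13.1 and 12.8 CPM in homozygous, 10.2, 12.5 and 12.2 CPM in heterozygous and 7.85, 9.66 and 9.63 CPM in wild-type rats. Both mutant genotypes lay above all wild types and overlapped each other. Log2 fold changes were 0.47 ± 0.17 in homozygotes and 0.36 ± 0.17 in heterozygotes over wild types (SE; edgeR adjusted p = 0.544 and 0.981).

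C1qc, the C chain, had 6.501, 5.29 and 5.46 CPM in homozygous, 4.06, 4.99 and 5.99 CPM in heterozygous and 2.99, 3.93 and 3.61 CPM in wild-type rats. Here too every mutant rat exceeded every wild type, although heterozygous rat 1 did so narrowly. Its log2 fold changes were the highest of the 10 genes in homozygotes, 0.71 ± 0.22, and in heterozygotes, 0.51 ± 0.22, over wild types (SE; unadjusted p = 0.00666 and 0.0347, edgeR adjusted p = 0.544 and 0.981).

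Tmem119, a membrane protein of homeostatic microglia, had 4.47, 4.40 and 3.52 CPM in homozygous, 2.88, 3.56 and 3.70 CPM in heterozygous and 3.10, 2.24 and 2.31 CPM in wild-type rats. Homozygotes and wild types did not overlap, and heterozygous rat 1 lay below wild-type rat 1. Its log2 fold change of homozygotes over wild types was 0.69 ± 0.23 (SE; unadjusted p = 0.0103, edgeR adjusted p = 0.544).

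Cx3cr1, the receptor for the neuronal chemokine fractalkine, had 13.6, 13.1 and 14.4 CPM in homozygous, 10.2, 11.7 and 12.6 CPM in heterozygous and 9.34, 7.81 and 12.1 CPM in wild-type rats. Homozygotes lay above all heterozygotes and all wild types, and it was the sole member of the 10 with no overlap between the mutant genotypes. Its log2 fold change was 0.49 ± 0.19 over wild types and 0.26 ± 0.19 over heterozygotes (SE; edgeR adjusted p = 0.544 and 1.0).

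P2ry12, the purinergic receptor that guides microglial processes toward released nucleotides, had 7.16, 5.17 and 8.08 CPM in homozygous, 5.84, 6.16 and 8.14 CPM in heterozygous and 4.89, 6.04 and 8.37 CPM in wild-type rats. The genotypes overlapped fully, and the highest value of all was in a wild type. The log2 fold change of homozygotes over wild types was 0.08 ± 0.25 (SE; edgeR adjusted p = 0.919), and it turned to -0.07 when loci with a gene name alone were fitted.

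Csf1r, the receptor for CSF1 and IL-34, had 54.0, 57.8 and 63.2 CPM in homozygous, 51.7, 59.0 and 62.4 CPM in heterozygous and 41.4, 43.2 and 54.6 CPM in wild-type rats. Wild-type rat 3 reached into both mutant ranges. The log2 fold change over wild types was 0.33 ± 0.16 in homozygotes and 0.31 ± 0.16 in heterozygotes (SE; edgeR adjusted p = 0.544 and 0.981).

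Trem2, a lipid-sensing receptor, had 3.94, 2.99 and 3.07 CPM in homozygous, 2.81, 2.38 and 3.07 CPM in heterozygous and 2.46, 2.50 and 2.41 CPM in wild-type rats. Homozygotes lay above the wild types, which were close together, and the heterozygotes overlapped both. The log2 fold change of homozygotes over wild types was 0.43 ± 0.22 (SE; edgeR adjusted p = 0.544).

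Tyrobp, the adaptor that carries the Trem2 signal, had 3.01, 3.93 and 4.61 CPM in homozygous, 2.97, 4.26 and 3.36 CPM in heterozygous and 2.87, 3.75 and 2.73 CPM in wild-type rats. All 3 genotypes overlapped. Its log2 fold change of homozygotes over wild types was 0.31 ± 0.25 (SE; edgeR adjusted p = 0.644), and the ratio of Trem2 to Tyrobp by TPM was 0.369 ± 0.141 in homozygous, 0.315 ± 0.0779 in heterozygous and 0.304 ± 0.0529 in wild-type rats (SD, n = 3 each).

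Aif1, which encodes the calcium-binding protein IBA1 used to stain microglia, had 5.26, 5.47 and 8.003 CPM in homozygous, 6.02, 6.39 and 6.91 CPM in heterozygous and 4.07, 7.63 and 5.94 CPM in wild-type rats. The spread within homozygotes and within wild types covered the heterozygous range. Its log2 fold change of homozygotes over wild types, 0.09 ± 0.25 (SE; edgeR adjusted p = 0.907), turned to -0.10 when loci with a gene name alone were fitted.

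**Figure D1:**
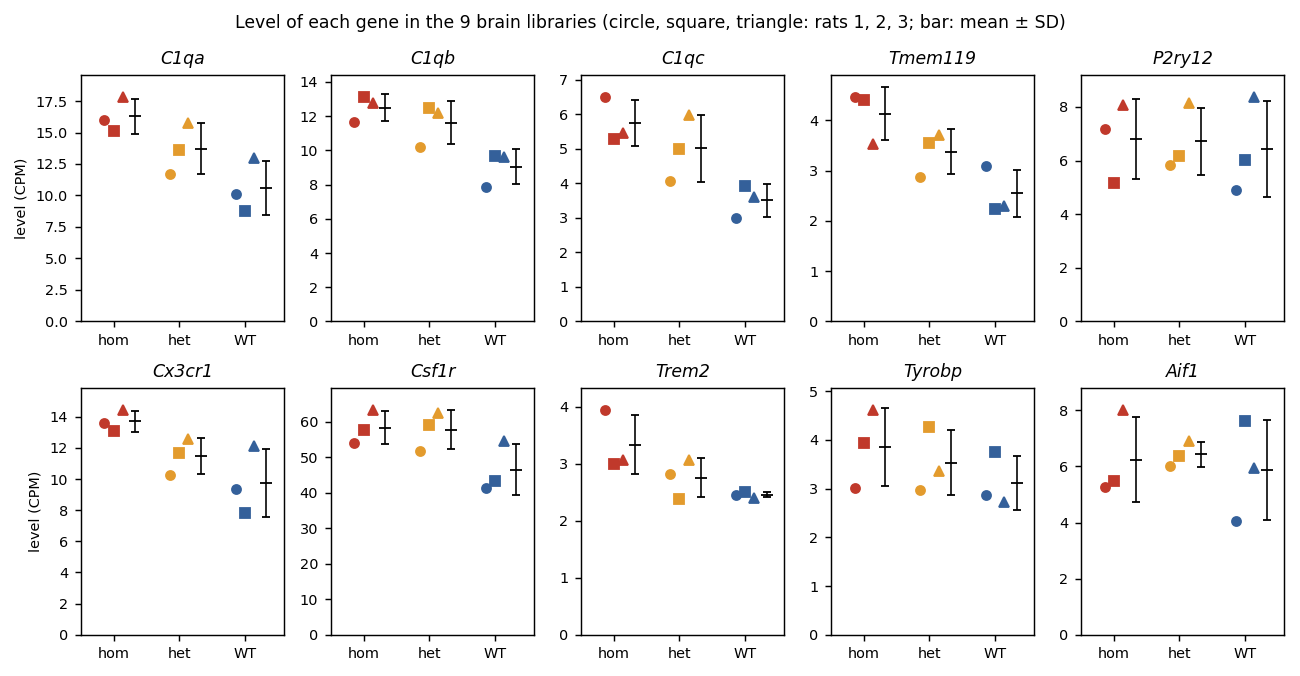
Level of each of the 10 genes (vertical axis, CPM of the TMM-scaled library, from 0) in homozygous (hom), heterozygous (het) and wild-type (WT) rats; each symbol is 1 rat and the bar is the mean ± SD of 3. Homozygotes and wild types do not overlap for C1qa, C1qb, C1qc, Tmem119, Cx3cr1 and Trem2, and they overlap for P2ry12, Csf1r, Tyrobp and Aif1.

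Homozygotes lay wholly above wild types in 6 of the 10 genes (C1qa, C1qb, C1qc, Tmem119, Cx3cr1 and Trem2), against 7.28% of all tested loci and 15.2% of those with a gene name. With 3 rats against 3 an exact two-sided permutation test cannot go below 0.1, the value each of these 6 reached, and over the 30 such tests of the 10 genes the smallest adjusted value was 0.333. The count of non-overlapping genes was 6 to 8 when 1 homozygous or wild-type library was left out. The share of named loci that did not overlap in the same direction was 16.9% to 21.7% in these sets, except without wild-type rat 3, when it was 44.5%. The number of the 10 genes at an unadjusted p under 0.05 was 3 without wild-type rat 1, 4 without wild-type rat 2 and 6 without wild-type rat 3. In those fits 2803, 1991 and 11132 loci of the whole table were at that level in either direction, beside 3566 with all libraries. The share of loci higher at that level in each of those fits is not given here. The counts of 3, 4 and 6 genes therefore cannot be judged against such a share. All 10 genes stayed above 0 with any library left out except homozygous rat 3 or wild-type rat 1, without which 8 did.

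The size of the difference depended on what the libraries were scaled to. The median log2 fold change of homozygotes over wild types was 0.45 over the 10 genes, 0.14 over all named loci and -0.06 over all tested loci. When named loci alone were fitted, the median of the named loci was -0.01, that of the 10 genes was 0.28, 8 of the 10 were higher, and 4 had an unadjusted p under 0.05. In that fit 2241 named loci were at that level in either direction, and the share that were higher is not given here. Scaling to library totals without TMM gave a median of 0.14 over the 10 genes and -0.18 over named loci. By the deposited TPM the median was -0.32 over the 10 genes and -0.64 over 15086 named loci, of which 3.53% had a higher mean in homozygotes. Relative to the median named locus, 8 of the 10 genes were higher by TPM, the exceptions being P2ry12 at -0.03 and Aif1 at -0.07. The signal-recognition-particle RNA Rn7sl1 alone took 13.9% of all TPM in homozygous, 12.3% in heterozygous and 9.64% in wild-type libraries, and the locus AABR07064724.4 the same shares again. Of the named loci, 16.0% had a higher log2 fold change than the median of the 10 genes, and 7.54% a higher one than the median of the C1q chains.

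**Figure D2:**
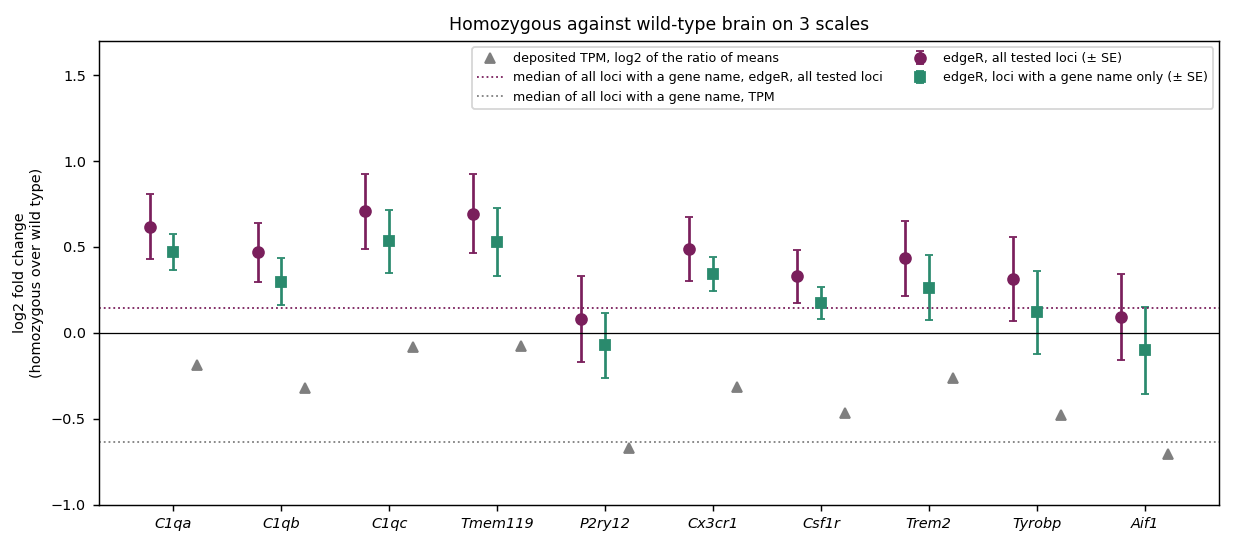
Log2 fold change of homozygous over wild-type brain (vertical axis) for each gene on 3 scales: edgeR over all tested loci and edgeR over named loci alone (both ± SE), and the log2 ratio of mean deposited TPM. The first scale puts all 10 genes above 0 and TPM puts all 10 below 0, while 8 of the 10 lie above the dotted median of named loci on either of these scales.

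In the comparison of heterozygous with wild-type brain, all 10 genes again had a higher fitted level on the CPM scale, as did 45.1% of all tested loci and 66.2% of named loci. When named loci alone were fitted 9 were higher, with P2ry12 at -0.02, and the median named locus was at -0.002. By deposited TPM 2 had a higher mean, against 9.665% of named loci. None passed the test, with an adjusted p of 0.981 to 0.992 in edgeR's quasi-likelihood test, and 3 loci (0.00768%) passed in the whole table. C1qc alone had an unadjusted p under 0.05, where 1.37% of all tested loci and 2.19% of named loci were higher at that level. C1qb and C1qc did not overlap between these genotypes, which was true of 2.69% of all tested loci and 3.72% of named loci. That count was 5 without heterozygous rat 1 (15.4% of named loci) or without wild-type rat 3 (32.7%), 4 without wild-type rat 2 (5.54%), 3 without heterozygous rat 2 (5.5%) or wild-type rat 1 (7.58%), and 2 without heterozygous rat 3 (4.6%). The median log2 fold change was 0.27 over the 10 genes and 0.08 over named loci. Without wild-type rat 3 it was 0.41 over the 10 genes.

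Between homozygous and heterozygous brain 9 of the 10 genes had a higher fitted level in homozygotes on the CPM scale, with Aif1 at -0.04. When named loci alone were fitted 7 were higher, and the median named locus was at 0.008. With libraries scaled to their totals 4 were higher, and the median named locus was at -0.146. By deposited TPM 0 were higher. A higher fitted level on the CPM scale was found for 50.7% of all tested loci and 71.1% of named loci, and a higher mean TPM for 4.59% of named loci. The adjusted p was 1.0 for all 10 in edgeR's quasi-likelihood test, no gene had an unadjusted p under 0.05 (0.512% of all tested loci and 0.46% of named loci did in this direction), and 1 locus (0.00256%) passed in the whole table. Cx3cr1 did not overlap, as was true of 4.72% of all tested loci and 8.49% of named loci. Without heterozygous rat 3 that count was 4 (21.8% of named loci), without any 1 homozygous rat it was 2 (14.2% to 21.6%), and without heterozygous rat 1 or 2 it stayed 1. The median log2 fold change was 0.16 over the 10 genes and 0.08 over named loci. It was 0.02 without heterozygous rat 1, which had the lowest summed CPM of the 10 genes among the heterozygotes, 108.4 beside 124.5 and 134.2.

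By mean CPM the order was homozygous, then heterozygous, then wild type for 9 of the 10 genes, with heterozygous above homozygous for Aif1. That order held for 24.5% of all tested loci and 47.8% of named loci. It did not hold by deposited TPM, where the homozygous mean was the lowest for all 10 genes. C1qa, for example, had 6.98 TPM in homozygous, 7.79 in heterozygous and 7.94 in wild-type rats. Of named loci, 3.53% had a higher mean TPM in homozygotes than in wild types and 4.59% a higher one than in heterozygotes. Both comparisons with wild type share the same 3 wild-type libraries. The heterozygous level differed from the midpoint of the other genotypes by a median log2 of 0.06 over the 10 genes, ranging from -0.05 for Trem2 to 0.16 for C1qc, with an adjusted p of 1.0 for all 10 in edgeR's quasi-likelihood test (2 loci, 0.00512%, passed in the whole table). Single libraries took part in the order: homozygous rat 3 was the highest of the 9 in 5 genes, wild-type rat 1 the lowest in 5 and wild-type rat 2 the lowest in 3.

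Complement chains were then set beside homeostatic genes within each library. The summed TPM of C1qa, C1qb and C1qc was 1.98, 2.18 and 2.07 times that of Tmem119, P2ry12 and Cx3cr1 in homozygous rats 1 to 3, 2.02, 2.16 and 2.07 times in heterozygous rats and 1.84, 2.13 and 1.69 times in wild-type rats. The mutant genotypes overlapped each other, and wild-type rat 2 fell within the range of both while the other wild types lay below it. The log2 of the ratio was higher by 0.14 in homozygotes than in wild types by TPM and by 0.17 by CPM, and by CPM it was 0.12 without wild-type rat 3 and 0.25 without wild-type rat 2, the extremes over single libraries left out. By CPM the sums were 34.6 ± 1.32 for C1q and 24.63 ± 1.750 for the homeostatic genes in homozygous rats, 30.3 ± 4.06 and 21.6 ± 2.73 in heterozygous rats, and 23.2 ± 2.73 and 18.7 ± 3.58 in wild-type rats (SD, n = 3 each). By TPM the C1q sum was 14.5 ± 0.488 in homozygous, 17.0 ± 5.69 in heterozygous and 16.9 ± 3.25 in wild-type rats. The homeostatic sum by TPM was 6.98 ± 0.224 in homozygous, 8.10 ± 2.44 in heterozygous and 9.13 ± 2.72 in wild-type rats (SD, n = 3 each). On this scale both sums had a lower mean in homozygotes than in wild types.

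**Figure D3:**
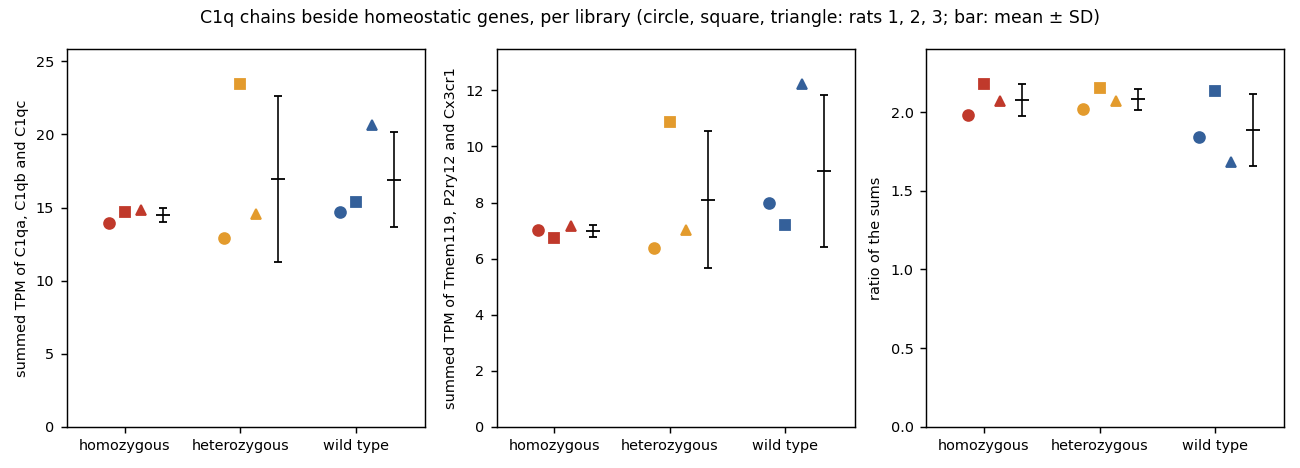
Summed TPM of the 3 C1q genes (left), summed TPM of Tmem119, P2ry12 and Cx3cr1 (middle) and the ratio of these sums (right), each axis from 0, per rat, with the mean ± SD of 3. The ratio was 1.69 to 2.18 in all 9 libraries, and wild-type rat 2, at 2.13, lay within the mutant range.

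How closely 2 genes moved together was described by the SD over the 9 libraries of the log2 ratio of their levels (log2 of CPM + 0.5), which is small where the ratio is steady. Among the 45 pairs it ran from 0.0756 for C1qa with Cx3cr1 to 0.456 for Tmem119 with Aif1, with a median of 0.235. The pairs of C1qb with Csf1r (0.113), Cx3cr1 with Csf1r (0.139) and C1qa with Csf1r (0.157) came next. The 3 pairs among C1q chains had a median of 0.192, and their pairs with homeostatic genes one of 0.233. Homeostatic genes were not a tighter group: Tmem119 with P2ry12 had 0.425, the second widest of the 45. Tyrobp and Aif1, which had wide ratios with most of the others, had 0.224 with each other. These points share library and depth, and the rarer genes carry more counting error, since Tyrobp had as few as 68 counts in a library while Csf1r had at least 1221.

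**Figure D4:**
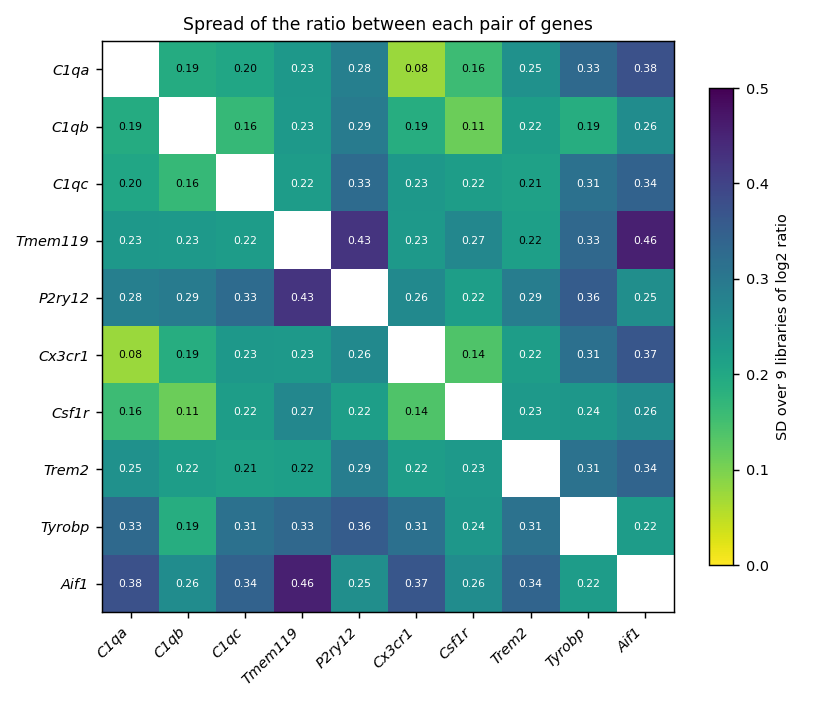
SD over 9 libraries of the log2 ratio between each pair of the 10 genes, written in each cell and shaded (lighter is steadier). The steadiest pair is C1qa with Cx3cr1 (0.0756), followed by C1qb with Csf1r (0.113), and the widest are Tmem119 with Aif1 (0.456) and Tmem119 with P2ry12 (0.425).

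The named genes most like the C1q sum by the same measure, among 3909 loci of at least 1 CPM that varied as much, were Aprt (0.0689), Tmem208 (0.0764), Fuca1 (0.0779), Cyba (0.0857) and Etnk2 (0.0860). Each tracked the sum more closely than did C1qa itself, at 0.0980. Most like the homeostatic sum, among 5886 loci, were Flcn (0.0456), Rpl10a (0.0471), Ctsf (0.0476), Psma7 (0.0497) and Myl6 (0.0520), again steadier than Cx3cr1 within its own sum, at 0.0641. Aprt, a purine salvage enzyme, had a log2 fold change of 0.65 ± 0.19 in homozygotes over wild types, and Fuca1, a lysosomal fucosidase, 0.57 ± 0.19 (SE; edgeR adjusted p = 0.544 for both).

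Trem2 and P2ry12 were the members with more than 1 assembled isoform, 3 each. The main Trem2 isoform took 65.5 ± 4.84% of the locus in homozygous, 71.3 ± 7.11% in heterozygous and 64.6 ± 12.1% in wild-type rats, in the authors' deposited isoform percent (SD, n = 3 each). The main P2ry12 isoform took 78.4 ± 3.98%, 77.7 ± 1.124% and 73.1 ± 2.77% in homozygous, heterozygous and wild-type rats. The genotypes overlapped for Trem2. For P2ry12 the homozygotes overlapped both other genotypes, while the lowest heterozygote, at 76.45%, lay just above the highest wild type, at 76.14%, a difference that was not tested.

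Other microglial genes had values on both sides of 0. Of 28 listed, 26 were tested, 21 had a higher and 5 a lower fitted level in homozygotes than in wild types on the CPM scale, 0 passed the adjusted threshold, and the median log2 fold change was 0.13. That median lay below the 0.14 of all named loci, of which 73.2% had a higher fitted level in this comparison. Spi1, which encodes PU.1, had 1.53 ± 0.179 CPM in homozygous, 1.20 ± 0.171 CPM in heterozygous and 0.808 ± 0.140 CPM in wild-type rats (SD, n = 3 each), a log2 fold change of 0.91 ± 0.28 over wild types (SE; unadjusted p = 0.00611, edgeR adjusted p = 0.544). Slco2b1, a transporter, had 0.43 ± 0.15 and Olfml3, a secreted protein, 0.66 ± 0.25 (SE; edgeR adjusted p = 0.544 for both). In heterozygotes 25 of the 26 were higher than in wild types, against 66.2% of named loci. Between homozygotes and heterozygotes 9 were higher and 17 lower in homozygotes, where 71.1% of named loci were higher.

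Of the complement cascade and its receptors beyond C1q, 19 genes were tested and 13 had a higher fitted level in homozygotes than in wild types, against 73.2% of named loci. There were 0 adjusted calls, and the median log2 fold change was 0.18. C1r, the protease that C1q activates, had 12.3 ± 1.79 CPM in homozygous, 12.03 ± 2.58 CPM in heterozygous and 8.23 ± 3.22 CPM in wild-type rats. Cfd, the factor D of the alternative pathway, stood at 0.329 ± 0.0397, 0.220 ± 0.0626 and 0.162 ± 0.0320 CPM in homozygous, heterozygous and wild-type rats (SD, n = 3 each). C4a had a log2 fold change of 0.69 ± 0.38 (SE; edgeR adjusted p = 0.549), a value that is uncertain because reads can be split with the near-identical C4b. C3, the central component that the cascade cleaves, had 0.03 ± 0.30.

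A list of 6 secreted factors held Csf1 and Il34, ligands of Csf1r, Cx3cl1, the ligand of Cx3cr1, Apoe and Clu, ligands of Trem2, and Tgfb1, which acts on microglia through receptors outside the 10 genes. All 6 had a higher fitted level in homozygotes than in wild types on the CPM scale, as did 73.2% of named loci. Their median log2 fold change was 0.30, with 0 adjusted calls. Apoe, a lipid carrier, had 764.8 ± 97.6 CPM in homozygous, 593.7 ± 103.9 CPM in heterozygous and 423.2 ± 123.1 CPM in wild-type rats (SD, n = 3 each). Its log2 fold change of 0.85 ± 0.21 had an unadjusted p of 0.00148 and an edgeR adjusted p of 0.544. Il34 had 0.41 ± 0.17 and Clu 0.25 ± 0.13 (SE). Of the genes of Trem2-Tyrobp signalling and of activated microglia, 14 were tested and 11 were higher, against 73.2% of named loci. None was at an unadjusted p under 0.05, where 10.5% of named loci were higher. Lpl, a lipase of activated microglia, had -0.44 ± 0.22, Axl, a phagocytic receptor kinase, 0.36 ± 0.19, and Ctsd, a lysosomal protease, 0.30 ± 0.18 (SE).

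Genes of other cells also differed in fitted level between these groups. Of 7 tested genes of border macrophages, which share several of the 10 genes with microglia, 5 had a higher fitted level in homozygotes than in wild types on the CPM scale, against 73.2% of named loci. Stab1 had a log2 fold change of 0.84 ± 0.28, Cd163 0.69 ± 0.31 and Lyve1 0.53 ± 0.31 (SE). The summed level of the list was 15.5 to 21.8 CPM in homozygous, 15.6 to 21.9 CPM in heterozygous and 12.3 to 15.9 CPM in wild-type rats, while Ms4a7 held 20 counts in all 9 libraries. All 10 tested blood cell genes had a lower fitted level in homozygotes, against 26.8% of named loci, with a median log2 fold change of -1.22 and 0 adjusted calls. Their sum was 357.8 to 379.3 CPM in homozygous, 246.8 to 482.0 CPM in heterozygous and 361.3 to 691.9 CPM in wild-type rats, and Ccr2, a monocyte receptor, held 0 counts. S100a8, of neutrophils, had -2.76 ± 0.98, Slc4a1, of red cells, -1.53 ± 0.53, and Hbb, a globin, -0.91 ± 0.34 (SE).

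Lists of other brain cells had mostly higher fitted levels too. Higher fitted levels in homozygotes than in wild types were found for 5 of 6 pan-neuronal, 6 of 6 astrocyte, 7 of 7 oligodendrocyte and 4 of 6 endothelial genes, with 0 adjusted calls. The share of all named loci was 73.2%. Their median log2 fold changes were 0.24 for neurons, 0.24 for astrocytes, 0.31 for oligodendrocytes and 0.43 for endothelium. Cldn5, a tight-junction protein of endothelium, had 0.83 ± 0.20, Tubb3, a neuronal tubulin, 0.72 ± 0.31, Aldoc, an astrocytic aldolase, 0.57 ± 0.20, and Cnp, of myelin, 0.43 ± 0.18 (SE; edgeR adjusted p = 0.544 for all 4). The next genes by p were Eno2 (0.32 ± 0.21) and Rbfox3 (0.30 ± 0.22) of neurons and Aldh1l1 (0.42 ± 0.21) and Slc1a3 (0.25 ± 0.18) of astrocytes. They were Mbp (0.38 ± 0.21) and Cldn11 (0.31 ± 0.19) of oligodendrocytes and Esam (0.40 ± 0.19) and Tie1 (0.49 ± 0.25) of endothelium (SE). Of 6 genes listed for single brain regions, 2 had the widest ranges: Gabra6, of cerebellar granule cells, ran from 0.585 to 103.4 CPM, and Tph1, of the pineal gland, from 0.153 to 92.8 CPM over the 9 libraries. The part that these cells, the mitochondrial share or a difference in the dissected tissue had in the values of the 10 genes was not tested.

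**Figure D5:**
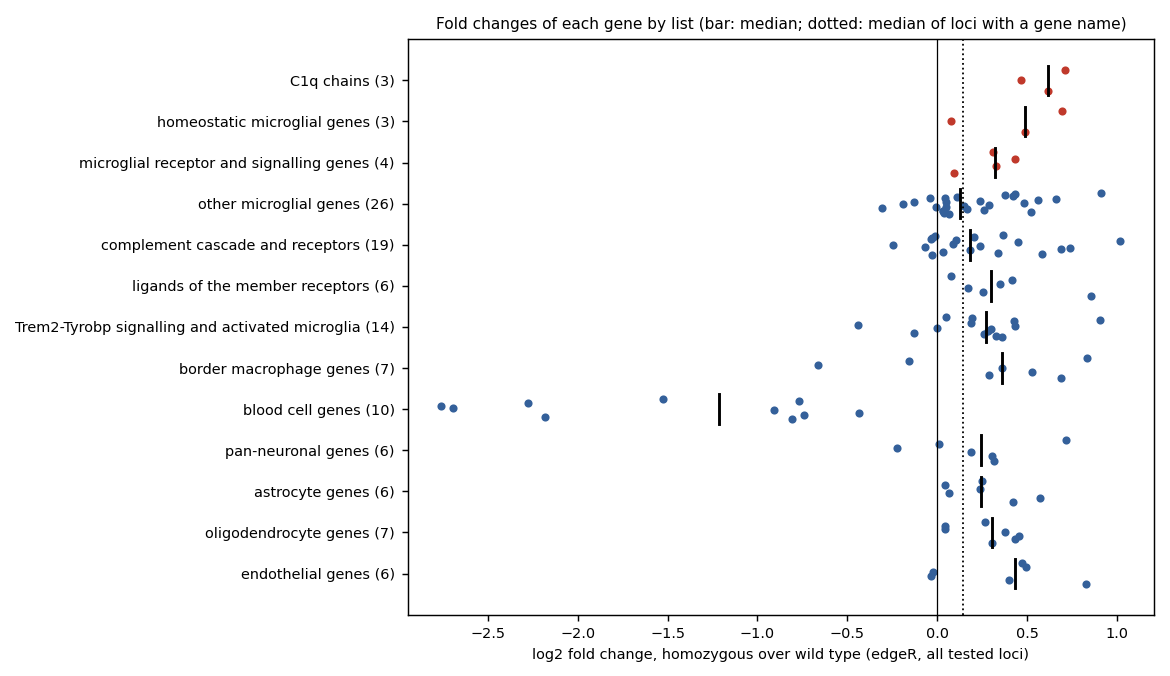
Log2 fold change of homozygous over wild-type brain (horizontal axis, edgeR over all tested loci) for each tested gene of each list except the regional genes, which are not drawn. The number of tested genes is in brackets, the bar is the list's median and the dotted line the median of named loci, 0.14. The C1q chains lie at 0.47 to 0.71, other microglial genes spread on both sides of the dotted line, and blood cell genes lie below 0.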

How the data were processed

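Total RNA of whole brain was depleted of ribosomal RNA and made into stranded paired-end libraries, per the labels' protocols. The submitters' processing notes name cutadapt, HISAT2, StringTie, RSEM and the build rn6, without versions. The authors deposited RSEM expected counts, TPM and isoform percent per locus or isoform of an assembly merged over the libraries, per the file contents. Whether strand entered the counting is not stated in these sources.

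Expected counts were rounded to whole numbers, and 39057 of 114601 loci passed filterByExpr of edgeR 4.0.16. Spike-in loci (99) stayed out of library sizes and tests. All 9 libraries were scaled by TMM (factors 0.813 to 1.184) and fitted together with edgeR's robust quasi-likelihood method in R 4.3.3 (common biological coefficient of variation 0.277), after a test on simulated data. Each mutant genotype was contrasted with wild type, the homozygotes with the heterozygotes, and the heterozygotes with the midpoint of the others. Adjusted p are Benjamini-Hochberg over all tested loci. Fitted levels differ from mean CPM in weighting. The labels number the rats but do not say that they came from separate litters, so p measures the spread between these samples.

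The 10 genes and the gene lists were chosen with earlier results of these data known. From each list the 3 genes of smallest p in homozygous against wild type were named by rule, and genes named beside them (C3, Ms4a7, Ccr2, Gabra6, Tph1) were chosen after their values were seen. The likeness rule named 5 loci per sum, of at least 1 CPM. Avp, Oxt and Prox1, which the rule picks from a list of regional genes, are described in the closing section. Same-numbered rats of different genotypes deviated with correlations of -0.079 to 0.233, so the numbers were not taken as pairs. Alternatives covered RLE factors, library totals, no filter, mitochondrial loci left out, DESeq2 1.42.0, limma-voom (limma 3.58.1), a replicate block, each library left out, named loci alone, summed same-strand loci and deposited TPM. The TPM scale and the counts of the 10 genes without each library were added after seeing the data.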

Additional observations from a re-analysis of the deposited data

How the results depend on the processing

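None of the 10 genes was called under any alternative run, and the adjusted p of C1qa in homozygotes against wild types ran from 0.0894 to 0.992. The number of loci called in that comparison was 0, and it was 26 with DESeq2, 6 with no filter, 5 with library totals without TMM and 0 to 5 with 1 library left out. For heterozygotes against wild types it was 3, and 20 with DESeq2, 5 with no filter, 7 with those genotypes alone, 0 with named loci alone and 1 to 28 with 1 library left out. For homozygotes against heterozygotes it was 1, and 3 with DESeq2, 2 with RLE factors, limma-voom, library totals, no filter or those genotypes alone, 0 with named loci alone and 1 to 18 with 1 library left out. Against the midpoint it was 2, and 15 with DESeq2, 5 with no filter, 4 with library totals, 0 with named loci alone and 1 to 40 with 1 library left out.

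With the replicate number as a block, a pairing the labels do not give, 1 locus was called in homozygotes against wild types, 3 in heterozygotes against wild types and 2 between the mutants, and the median log2 fold change of the 10 genes was 0.45, 0.29 and 0.17.

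The median of the 10 genes in homozygotes over wild types was 0.28 with named loci alone, 0.138 with library totals and 0.406 to 0.521 with 1 library left out. With 1 library left out it was 0.224 to 0.413 in heterozygotes over wild types and 0.022 to 0.253 in homozygotes over heterozygotes, and with library totals it was -0.057 in the second. By deposited TPM, 0 of the 10 were higher in homozygotes than in wild types, against 3.53% of named loci.

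Single genes near 0 turned sign. In homozygotes over wild types, P2ry12 and Aif1 were at -0.264 and -0.23 with library totals, at -0.073 and -0.102 with named loci alone, and at -0.088 to 0.349 and -0.11 to 0.324 with 1 library left out. In heterozygotes over wild types, P2ry12 was at -0.068 with library totals and -0.02 with named loci alone, and with 1 library left out P2ry12 ran from -0.1 to 0.336 and Aif1 from -0.063 to 0.362. In homozygotes over heterozygotes, library totals gave -0.112 for C1qb, -0.013 for C1qc, -0.197 for P2ry12, -0.203 for Csf1r and -0.102 for Tyrobp. There P2ry12 and Csf1r were at -0.053 and -0.054 with named loci alone and at -0.012 and -0.018 with no filter. With 1 library left out C1qb ran from -0.002 to 0.168, P2ry12 from -0.105 to 0.192, Csf1r from -0.079 to 0.077, Tyrobp from -0.005 to 0.298 and Aif1 from -0.241 to 0.06. The cause of these shifts was not tested.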

Other observations

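Of 6 genes listed to check for regional dissection, Tph1 and Gabra6 had the widest ranges over the libraries. Tph1, of the pineal gland, had 2.36 ± 3.69 CPM in homozygous, 61.6 ± 52.4 CPM in heterozygous and 1.61 ± 1.76 CPM in wild-type rats, and Gabra6, of cerebellar granule cells, 41.3 ± 35.6, 24.8 ± 9.70 and 36.7 ± 57.8 CPM in the same genotypes (SD, n = 3 each). The SD of Tph1 in homozygotes and wild types, and that of Gabra6 in wild types, exceeded the mean. Avp had 1.47 ± 0.415 CPM in homozygous, 1.43 ± 0.425 CPM in heterozygous and 1.07 ± 1.00 CPM in wild-type rats, Oxt 1.503 ± 0.221, 1.24 ± 0.271 and 0.918 ± 0.817 CPM, and Prox1 12.4 ± 2.86, 13.9 ± 0.739 and 16.1 ± 2.42 CPM in the same genotypes (SD, n = 3 each). In Avp and Oxt the SD was largest among wild types. Of these 6 genes 5 had a higher fitted level in homozygotes than in wild types on the CPM scale, against 73.2% of named loci. Their median log2 fold change was 0.30, with 0 adjusted calls and a smallest edgeR adjusted p of 0.545.

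Within genotypes the 10 genes varied about as much as other named loci of similar level. The median SD of log2 of CPM + 0.5 within genotypes was 0.198 for the 10 genes and 0.217 for 9658 named loci between 2.85 and 54.1 CPM. P2ry12 (0.308) and Aif1 (0.305) varied most within genotypes, and C1qb (0.139) and Trem2 (0.143) least.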
